A study of Mus musculus with 9 samples.

Results

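The 8 genes described here, Prox1, C1ql2, Dsp, Calb1, Tdo2, Dock10, Slc39a6 and Pdzd2, are genes of dentate gyrus granule cells. They were taken by symbol from a given list of such genes, and all 8 were among the 14779 genes of the deposited table and among the 14696 that were tested. The study sequenced polyadenylated RNA from the hippocampus of mice, with 3 groups of 3 libraries (9 in all) and, per the design text, 3 mice a group. CIE+IL17 Ab libraries came from mice exposed to CIE (chronic intermittent ethanol, vapour or drink not stated in the labels) and treated with an antibody against interleukin 17A, marked ab in the labels. CIE+IgG libraries came from CIE mice given IgG, a control immunoglobulin, marked iso. Air+IgG libraries came from mice kept in air and given IgG, also marked iso. The 3 groups share the tissue and the library kit, and the sources used here give neither the strain, sex and age of the mice nor the dose of the antibody. The comparisons ask how these genes differ with ethanol exposure, with the antibody in exposed mice, and between antibody-treated exposed mice and air controls.

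The dentate gyrus is the entry station of the hippocampal circuit. Its granule cells receive input from the entorhinal cortex and send mossy fibre axons to the hilus and to CA3. Granule cells are the most numerous neurons of the rodent hippocampus, they keep being added in adult rodents, and Prox1 is the transcription factor that sets and holds their identity. In bulk tissue, a lower level of a granule cell gene can come from fewer granule cells in the dissected piece or from less RNA of that gene per cell, and these cannot be told apart here.

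Library totals lay between 7372658 and 11894628 estimated counts. A pair of libraries stood apart before any comparison was made: Lars2 took 6.71% of the counts in CIE+IL17 Ab replicate 1 and 7.13% in Air+IgG replicate 2, against at most 0.0207% in the other 7 libraries. The same pair had the lowest summed level of 8 choroid plexus genes, 64.8 CPM (counts scaled for library size) in CIE+IL17 Ab replicate 1 and 509 CPM in Air+IgG replicate 2, against 2371 to 7117 CPM elsewhere. These libraries also hold the lowest and highest values of most of the granule cell genes, so results are given with and without them. Whether the Lars2 or choroid plexus levels have a part in any result was not tested.

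The promoters of the 2 members that varied most between libraries, C1ql2 and Dsp, are shown so that the regulatory sequence can be read beside the values. Each is the 250 bases before the RefSeq transcription start on GRCm38.p6, written on the strand of the gene, 5′ to 3′, with capitals marking matches to a searched motif. C1ql2 lies at chr1:120340332-120340581 on the plus strand and Dsp at chr13:38151044-38151293 on the plus strand, and both windows end at the base before the start of the gene in GENCODE M21. Tdo2, the next most variable member, has a RefSeq start inside its GENCODE gene, so its RefSeq window lies within that gene and is not shown.
C1ql2: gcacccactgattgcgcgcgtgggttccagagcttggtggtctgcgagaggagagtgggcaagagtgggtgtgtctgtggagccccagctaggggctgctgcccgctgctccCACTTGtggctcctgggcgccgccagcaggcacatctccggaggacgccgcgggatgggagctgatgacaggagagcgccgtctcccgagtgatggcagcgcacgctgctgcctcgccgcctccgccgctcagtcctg
Dsp: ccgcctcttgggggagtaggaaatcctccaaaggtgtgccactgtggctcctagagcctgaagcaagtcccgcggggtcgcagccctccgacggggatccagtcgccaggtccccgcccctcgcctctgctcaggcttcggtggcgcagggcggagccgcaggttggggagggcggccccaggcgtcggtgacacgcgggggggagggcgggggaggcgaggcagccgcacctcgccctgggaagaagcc

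The motifs searched, on both strands, were the E-box CANNTG, the E-box form CAGATG, which is contained in the first, the TATA box TATAAA, and TGACGT, the core of the cAMP response element. The C1ql2 window held 1 E-box, at position -138 from the start, and the Dsp window held none of these letters. Among 32536 RefSeq promoter windows of the same length, 66.2% held CANNTG, 14.4% CAGATG, 12.3% TATAAA and 6.50% TGACGT. The C1ql2 and Dsp windows were rich in guanine and cytosine, at 68.8% and 72.4% with 20 and 22 CpG dinucleotides, beside medians of 52.4% and 6 over all windows. A motif match is a description of the letters only. RefSeq windows were matched for 6 of the 8 genes.

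Prox1 (ENSMUSG00000010175, chr1:190118035-190170714 on GRCm38, minus strand) encodes the homeodomain transcription factor of granule cell identity, which some interneurons also express. It had 50.7, 159 and 167 CPM in CIE+IL17 Ab replicates 1, 2 and 3, 152, 198 and 118 CPM in CIE+IgG replicates, and 135, 265 and 122 CPM in Air+IgG replicates. Library sizes behind CPM were scaled with the TMM method. The groups overlapped, and the spread came mainly from a low value in CIE+IL17 Ab replicate 1 and a high value in Air+IgG replicate 2. The group means were 126 ± 65.1, 156 ± 39.9 and 174 ± 79.1 CPM in CIE+IL17 Ab, CIE+IgG and Air+IgG libraries (SD, n = 3 each).

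C1ql2 (ENSMUSG00000036907, chr1:120340582-120343174, plus strand) encodes a secreted C1q-like protein that granule cells place at mossy fibre synapses. Its levels were 5.84, 6.42 and 29.6 CPM in CIE+IL17 Ab libraries, 36.2, 49.6 and 17.0 CPM in CIE+IgG libraries, and 40.4, 82.0 and 35.4 CPM in Air+IgG libraries. All 3 CIE+IL17 Ab libraries lay below all 3 Air+IgG libraries, and 1 of them, replicate 3, lay above CIE+IgG replicate 3. The means were 13.97 ± 13.6 CPM in CIE+IL17 Ab libraries, 34.3 ± 16.4 CPM in CIE+IgG libraries and 52.6 ± 25.6 CPM in Air+IgG libraries (SD, n = 3 each). Its levels in CIE+IL17 Ab replicates 1 and 2 were similarly low.

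Dsp (ENSMUSG00000054889, chr13:38151294-38198577, plus strand) encodes desmoplakin, which ties desmosomes to intermediate filaments and in the hippocampus is known as a granule cell marker. It reached 0.973, 46.8 and 84.8 CPM in CIE+IL17 Ab libraries, 108, 144 and 57.9 CPM in CIE+IgG libraries, and 86.5, 212 and 78.4 CPM in Air+IgG libraries. CIE+IL17 Ab replicate 1 rested on 7 counts of Dsp, with an exact 95% Poisson interval of 2.81 to 14.4 counts that covers counting error only. That library held 0.775% of the Air+IgG mean. CIE+IL17 Ab replicate 2 also lay below every CIE+IgG and Air+IgG library, and replicate 3 lay within both of their ranges.

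Calb1 (ENSMUSG00000028222, chr4:15881264-15908064, plus strand) encodes calbindin-D28k, a cytosolic calcium buffer of granule cells that CA1 neurons, interneurons and thalamic neurons also contain. Its values were 57.96, 148 and 86.2 CPM in CIE+IL17 Ab libraries, 87.3, 87.0 and 101 CPM in CIE+IgG libraries, and 99.1, 101 and 103 CPM in Air+IgG libraries. The antibody libraries therefore lay both below and above all the others, while the Air+IgG libraries lay close together at 101 ± 1.82 CPM (SD, n = 3). Calb1 was the member with its highest value in CIE+IL17 Ab replicate 2.

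Tdo2 (ENSMUSG00000028011, chr3:81957090-81976202, minus strand) encodes tryptophan 2,3-dioxygenase, which opens the kynurenine pathway of tryptophan breakdown. It was the lowest member, with 0.834, 2.90 and 4.01 CPM in CIE+IL17 Ab libraries, 5.05, 7.37 and 2.98 CPM in CIE+IgG libraries, and 6.28, 11.2 and 5.02 CPM in Air+IgG libraries. These values rest on 6 to 83 counts per library, and the 6 counts in CIE+IL17 Ab replicate 1 have an exact 95% Poisson interval of 2.20 to 13.1. All CIE+IL17 Ab libraries were below all Air+IgG libraries.

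Dock10 (ENSMUSG00000038608, chr1:80501073-80758527, minus strand) encodes a guanine nucleotide exchange factor for the small GTPases Cdc42 and Rac, which act on the actin skeleton of dendritic spines. It was at 137, 184 and 239.6 CPM in CIE+IL17 Ab libraries, 232, 239 and 232 CPM in CIE+IgG libraries, and 187, 318 and 202 CPM in Air+IgG libraries. Slc39a6 (ENSMUSG00000024270, chr18:24579881-24603817, minus strand) encodes the zinc importer ZIP6. It had 42.3, 44.8 and 52.2 CPM in CIE+IL17 Ab libraries, 62.6, 64.7 and 43.1 CPM in CIE+IgG libraries, and 64.4, 83.8 and 64.6 CPM in Air+IgG libraries. For Slc39a6 the CIE+IL17 Ab and Air+IgG libraries did not overlap, and its means of 46.4 ± 5.18 and 70.9 ± 11.1 CPM in these groups had the smallest relative spread of the members within the antibody group. Pdzd2 (ENSMUSG00000022197, chr15:12359711-12739924, minus strand) encodes a protein with several PDZ domains. Its levels of 77.8, 102 and 162 CPM in CIE+IL17 Ab libraries, 133, 135 and 148 CPM in CIE+IgG libraries and 109, 159 and 89.0 CPM in Air+IgG libraries overlapped between all groups.

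**Figure D1:**
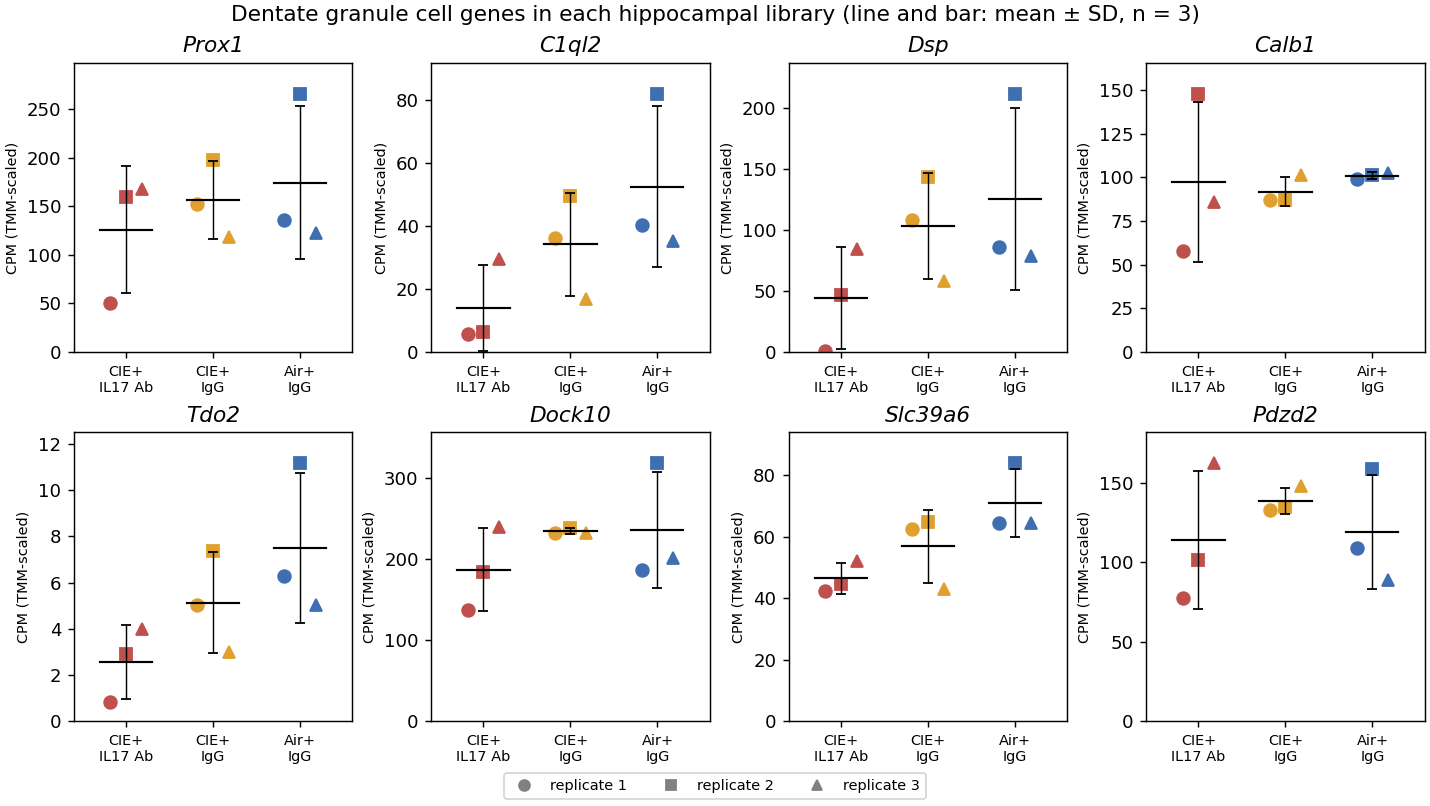
TMM-scaled CPM (vertical axis, from 0) of each of the 8 genes in the 3 libraries of each group, with marker shapes for the replicate number, a line at the group mean and a bar for the SD. CIE+IL17 Ab replicate 1 is the lowest of the 9 libraries for all 8 genes, for example 0.973 CPM of Dsp and 50.7 CPM of Prox1, and Air+IgG replicate 2 is the highest for 6.

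Levels per kilobase divide CPM by the merged length of all annotated exons of a gene, so orders between genes depend partly on the annotation. On this scale Calb1 had the highest mean in CIE+IL17 Ab libraries at 20.1 CPM per kilobase, followed by Prox1 at 15.0, Slc39a6 at 11.4 and Dock10 at 10.2. C1ql2 followed there at 6.98 CPM per kilobase, before Pdzd2 at 6.19, Dsp at 4.58 and Tdo2 at 0.665. In CIE+IgG libraries the order by mean CPM per kilobase was Calb1 at 19.0, Prox1 at 18.6, C1ql2 at 17.1, Slc39a6 at 13.9, Dock10 at 12.8, Dsp at 10.7, Pdzd2 at 7.52 and Tdo2 at 1.32. In Air+IgG libraries C1ql2 came first at 26.3 CPM per kilobase, followed by Calb1 at 20.9, Prox1 at 20.8, Slc39a6 at 17.4, Dsp at 13.0, Dock10 at 12.9, Pdzd2 at 6.46 and Tdo2 at 1.93. The library ranges of neighbours in these orders overlapped, except between Pdzd2 and Tdo2 in CIE+IgG and Air+IgG libraries and between Dock10 and Pdzd2 in Air+IgG libraries. Most neighbours are therefore not told apart, and C1ql2 stood first in Air+IgG libraries and below Dock10 in CIE+IL17 Ab libraries.

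Against Air+IgG, CIE+IgG libraries showed no member past the threshold in edgeR (quasi-likelihood test, Benjamini-Hochberg adjusted p under 0.05), and 0% of all tested genes passed. No member had an unadjusted p under 0.05, against 2.76% of all tested genes, and no member had groups without overlap, against 9.44%. DESeq2 called none of the members and 0.0409% of tested genes, and limma-voom called none of the members and 0% of tested genes. The log2 fold change was below 0 for 7 of 8 members (6 with pan-neuronal scaling, where Dock10 turned positive), against 52% of tested genes, with a member median of -0.22 and a median of all genes of -0.01. C1ql2 had the lowest value at -0.62 ± 0.64 (standard error), followed by Tdo2 at -0.54 ± 0.51, Slc39a6 at -0.32 ± 0.17 and Dsp at -0.28 ± 0.91. Prox1 was at -0.16 ± 0.46, Calb1 at -0.14 ± 0.28, Dock10 at -0.01 ± 0.24 and Pdzd2 at 0.22 ± 0.28. Without Air+IgG replicate 2 the member median was 0.06, with 4 of 8 below 0, and Prox1, Dsp and Dock10 were at 0.27, 0.32 and 0.26. Without both Lars2-rich libraries the member median was 0.07. Without CIE+IgG replicate 3 it was -0.07, again with 4 of 8 below 0.

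Against CIE+IgG, CIE+IL17 Ab libraries also showed no member called by edgeR, where 3.18% of tested genes were called. None of the members had an unadjusted p under 0.05, against 22.3% of tested genes. None had groups without overlap, against 25.9% of tested genes in either direction and 13.2% with the CIE+IL17 Ab libraries lower. DESeq2 called 0 members and 10.3% of genes, and limma-voom 0 members and 4.01% of genes. The log2 fold change was below 0 for 7 of 8 members, against 47.8% of genes, with a member median of -0.32 and a median of all genes of 0.01. C1ql2 was at -1.29 ± 0.67 (SE, adjusted p = 0.304 in edgeR), with 13.97 ± 13.6 CPM in CIE+IL17 Ab and 34.3 ± 16.4 CPM in CIE+IgG libraries. Dsp was at -1.21 ± 0.93 (adjusted p = 0.494 in edgeR), with 44.2 ± 42.0 CPM in CIE+IL17 Ab and 103 ± 43.2 CPM in CIE+IgG libraries. Tdo2 was at -0.94 ± 0.54 (adjusted p = 0.341 in edgeR). The other 5 lay between -0.33 ± 0.24 for Dock10 and 0.09 ± 0.28 for Calb1. For C1ql2 the outcome turned on CIE+IL17 Ab replicate 3, the one antibody library with a level near the controls: without it the value was -2.47 (adjusted p = 0.0394 in edgeR), and over all alternatives its adjusted p ranged from 0.0394 to 0.608. Without CIE+IL17 Ab replicate 1 the member median was -0.19, Prox1 was at 0.07 and Dsp at -0.65, and without CIE+IL17 Ab replicate 3 the median was -0.60.

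Against Air+IgG, CIE+IL17 Ab libraries showed 1 member called by edgeR, Slc39a6, which fell by 0.61 ± 0.17 on the log2 scale (adjusted p = 0.0494 in edgeR). Over all tested genes 13.5% were called in this comparison, 6.71% as lower. The call rests on a value at the threshold. It was lost in limma-voom (adjusted p = 0.0532), with libraries scaled by pan-neuronal genes (-0.45, adjusted p = 0.111 in edgeR), with the replicate number as a block (adjusted p = 0.0873 in edgeR), without both Lars2-rich libraries (-0.41, adjusted p = 0.193 in edgeR), and without any single library other than CIE+IL17 Ab replicate 3 or CIE+IgG replicate 3. Where an omission of a single library ended the call, the adjusted p in edgeR was 0.0549 to 0.15. Over all single-library omissions the log2 fold change of Slc39a6 lay between -0.71 and -0.48, and over all alternatives its adjusted p ranged from 0.0154 to 0.193. Slc39a6 was lower in CIE+IL17 Ab libraries in all of these settings.

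In the same comparison 3 of 8 members, C1ql2, Tdo2 and Slc39a6, had CIE+IL17 Ab libraries wholly below Air+IgG libraries, against 18.1% of tested genes, and the same 3 had an unadjusted p under 0.05, against 32%. C1ql2 was at -1.90 ± 0.68 (adjusted p = 0.0947 in edgeR) and Tdo2 at -1.48 ± 0.53 (adjusted p = 0.095 in edgeR), so neither was called. DESeq2 called 2 members, Slc39a6 (adjusted p = 0.0154) and Tdo2 (-1.51, adjusted p = 0.0343), and 20.2% of genes, and limma-voom called 0 members and 14.2% of genes. Over the alternatives the adjusted p of Tdo2 ranged from 0.0343 to 0.276 and that of C1ql2 from 0.0143 to 0.35. C1ql2 passed without CIE+IL17 Ab replicate 3 (-3.09, adjusted p = 0.0143 in edgeR) and with the label number as a block (-1.99, adjusted p = 0.0486 in edgeR). Dsp was at -1.49 ± 0.94, Prox1 at -0.46 ± 0.46, Dock10 at -0.33 ± 0.24, Pdzd2 at -0.06 ± 0.28 and Calb1 at -0.05 ± 0.28, with adjusted p between 0.315 and 0.927 in edgeR. All 8 log2 fold changes were below 0 (6 of 8 with pan-neuronal scaling, where Calb1 and Pdzd2 turned positive), against 48.4% of genes, with a member median of -0.54 and a median of all genes of 0.01. Without CIE+IL17 Ab replicate 1 the member median was -0.35, without Air+IgG replicate 2 it was -0.27, and without both it was -0.10 with 4 of 8 below 0 and Prox1 at 0.34. The 3 comparisons share libraries pairwise, so their values are not independent of each other.

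**Figure D2:**
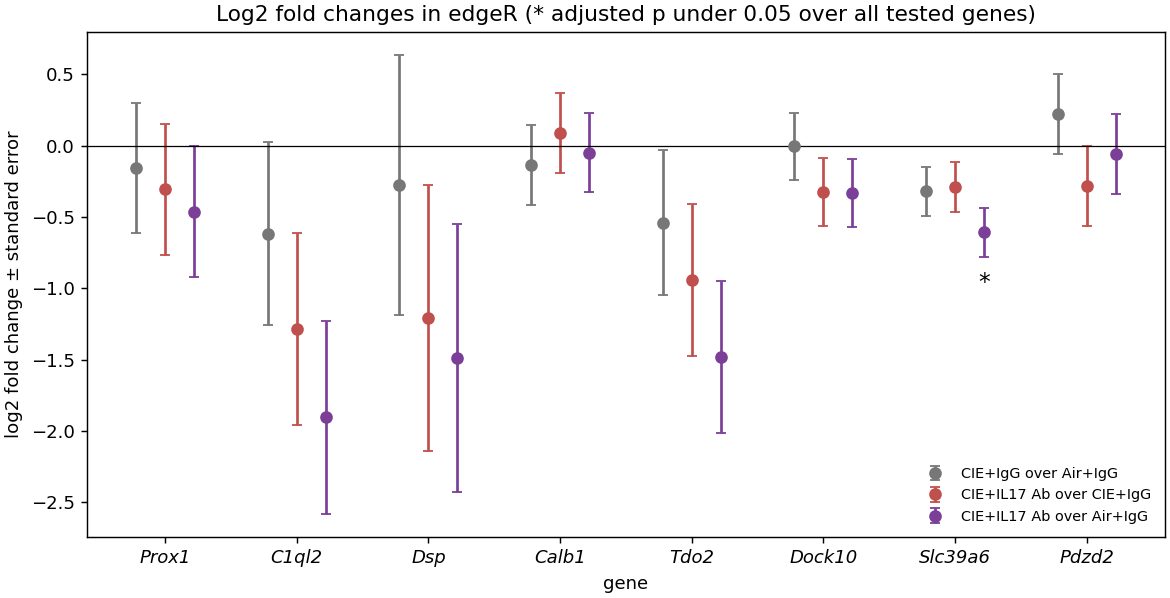
Log2 fold change (vertical axis) with its standard error for each of the 8 genes (horizontal axis) in the 3 comparisons, from the edgeR fit of all 9 libraries, with a star where the adjusted p over all tested genes was under 0.05. The star stands at Slc39a6 in CIE+IL17 Ab over Air+IgG (-0.61), while C1ql2 (-1.90), Dsp (-1.49) and Tdo2 (-1.48) lie lower with wider errors.

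The 8 genes varied to very different degrees between libraries. The highest of the 9 libraries exceeded the lowest 218-fold for Dsp, 14.1-fold for C1ql2, 13.4-fold for Tdo2 and 5.23-fold for Prox1, and between 1.98-fold and 2.55-fold for Slc39a6, Pdzd2, Dock10 and Calb1, beside a median of 1.65-fold over all tested genes. As an SD of log2 CPM over the 9 libraries, Dsp was at 2.19, above 99.8% of tested genes, C1ql2 at 1.28, Tdo2 at 0.98 and Prox1 at 0.66, and the other 4 between 0.34 and 0.38, where the median gene had 0.23. Without CIE+IL17 Ab replicate 1 the ratio of highest to lowest was 4.52 for Dsp, 12.8 for C1ql2, 3.85 for Tdo2 and 2.25 for Prox1. Dsp thus owed most of its range to 1 library, while C1ql2 was also low in CIE+IL17 Ab replicate 2.

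CIE+IL17 Ab replicate 1 was the lowest library for all 8 members, and 21.6% of tested genes had their lowest value there. Air+IgG replicate 2 was the highest for 6 members, Calb1 and Pdzd2 being the others, and 20.0% of tested genes had their highest value there. The members were at unequal shares of their Air+IgG mean in CIE+IL17 Ab replicate 1, with 0.775% for Dsp, 11.1% for C1ql2, 11.1% for Tdo2, 29.1% for Prox1, 57.4% for Calb1, 58.1% for Dock10, 59.6% for Slc39a6 and 65.4% for Pdzd2. Averaged over the members, the deviation of log2 CPM from each gene's mean was -1.70, -0.34 and 0.17 in CIE+IL17 Ab replicates 1, 2 and 3, 0.26, 0.50 and -0.14 in CIE+IgG replicates, and 0.21, 0.94 and 0.10 in Air+IgG replicates. The 3 Air+IgG values were all above 0, while the other groups had values on both sides of 0. The side of 0 depends on each gene's mean over the 9 libraries, which the low CIE+IL17 Ab replicate 1 pulled down. Air+IgG replicates 1 and 3, at 0.21 and 0.10, lay below CIE+IgG replicates 1 and 2, at 0.26 and 0.50.

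The ratio of members to Prox1 within a library is free of library scaling. Dsp was 1.92%, 29.4% and 50.7% of Prox1 in CPM in CIE+IL17 Ab libraries, 71.2%, 72.7% and 49.0% in CIE+IgG libraries, and 63.8%, 79.8% and 64.2% in Air+IgG libraries. C1ql2 was 11.5%, 4.03% and 17.7% of Prox1 in CIE+IL17 Ab libraries, 23.7%, 25.1% and 14.4% in CIE+IgG libraries, and 29.8%, 30.9% and 29.0% in Air+IgG libraries. The Air+IgG libraries were close to each other in C1ql2 per Prox1 although Air+IgG replicate 2 had the highest level of both genes. Tdo2 was 1.64%, 1.82% and 2.40% of Prox1 in CIE+IL17 Ab libraries, 3.31%, 3.73% and 2.53% in CIE+IgG libraries, and 4.64%, 4.21% and 4.11% in Air+IgG libraries. Calb1 per Prox1 was highest where Dsp per Prox1 was lowest in the CIE+IL17 Ab and CIE+IgG groups. It was at 114%, 92.7% and 51.5% of Prox1 in CIE+IL17 Ab libraries, 57.3%, 44.0% and 85.7% in CIE+IgG libraries, and 73.2%, 38.2% and 84.1% in Air+IgG libraries. These ratios were not tested.

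A further list of 14 genes known from granule cells was read beside the members. In CIE+IgG over Air+IgG, edgeR called 0 of the 14 (0 at an unadjusted p under 0.05, 0 in DESeq2 and 0 in limma-voom), and all 14 were below 0 with a median log2 fold change of -0.32. Of the 14, it called 0 in CIE+IL17 Ab over CIE+IgG (3 at an unadjusted p under 0.05, 1 in DESeq2 and 0 in limma-voom), 12 were below 0 and the median was -0.71. It called 1 of 14 in CIE+IL17 Ab over Air+IgG (6 at an unadjusted p under 0.05, 4 in DESeq2 and 3 in limma-voom), 14 were below 0 and the median was -0.92. Over all tested genes the shares in this last comparison were 13.5% called in edgeR, 32% at an unadjusted p under 0.05 and 20.2% in DESeq2. Limma-voom called 14.2%, and 48.4% were below 0. The 1 edgeR call was a lower one, and 6.71% of tested genes were called lower. In CIE+IL17 Ab over CIE+IgG the 5 shares were 3.18%, 22.3%, 10.3%, 4.01% and 47.8% in the same order. In CIE+IgG over Air+IgG they were 0%, 2.76%, 0.0409%, 0% and 52%. Libraries of CIE+IgG and Air+IgG overlapped for all 14, where 9.44% of tested genes had no overlap. CIE+IL17 Ab libraries lay wholly below CIE+IgG libraries for 1 of the 14, against 13.2% of tested genes, that gene being Rfx3 (-0.88 ± 0.31), named after its value was seen. They lay wholly below Air+IgG libraries for 6 of the 14, against 18.1% of tested genes. Without both Lars2-rich libraries the medians were 0.12, -0.54 and -0.59, so the first changed its sign.

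Neurod1, a basic helix-loop-helix transcription factor of granule neurons, was the gene called. It had 4.17, 8.45 and 10.0 CPM in CIE+IL17 Ab libraries, 13.9, 17.0 and 8.48 CPM in CIE+IgG libraries and 15.4, 17.8 and 17.8 CPM in Air+IgG libraries. It fell by 1.15 ± 0.32 on the log2 scale in CIE+IL17 Ab against Air+IgG libraries (adjusted p = 0.0477 in edgeR), and its adjusted p ranged from 0.00731 to 0.207 over the alternatives. The call was lost without any single library other than CIE+IL17 Ab replicate 3 or CIE+IgG replicate 3. It was also lost with pan-neuronal scaling, with only the groups compared, and with the replicate number or label number as a block. The same held with label numbers 54 to 60 and without both Lars2-rich libraries. In all, Neurod1 passed in 7 of 20 alternatives. Lct, the lactase gene, varied most, with 0.834, 11.2 and 47.8 CPM in CIE+IL17 Ab libraries, 77.1, 108 and 27.0 CPM in CIE+IgG libraries, and 52.0, 203 and 54.4 CPM in Air+IgG libraries. Its log2 fold changes were -0.54 ± 0.96, -1.81 ± 1.02 and -2.35 ± 1.03 in the same order of comparisons, with adjusted p of 0.9997, 0.338 and 0.156 in edgeR. C1ql3, a C1q-like relative of C1ql2, was at -0.52 ± 0.52 in CIE+IgG over Air+IgG. Trpc6, a cation channel, was at -2.02 ± 0.58 in CIE+IL17 Ab over Air+IgG (adjusted p = 0.0543 in edgeR), and -2.97 without CIE+IL17 Ab replicate 3 (adjusted p = 0.00886 in edgeR).

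**Figure D3:**
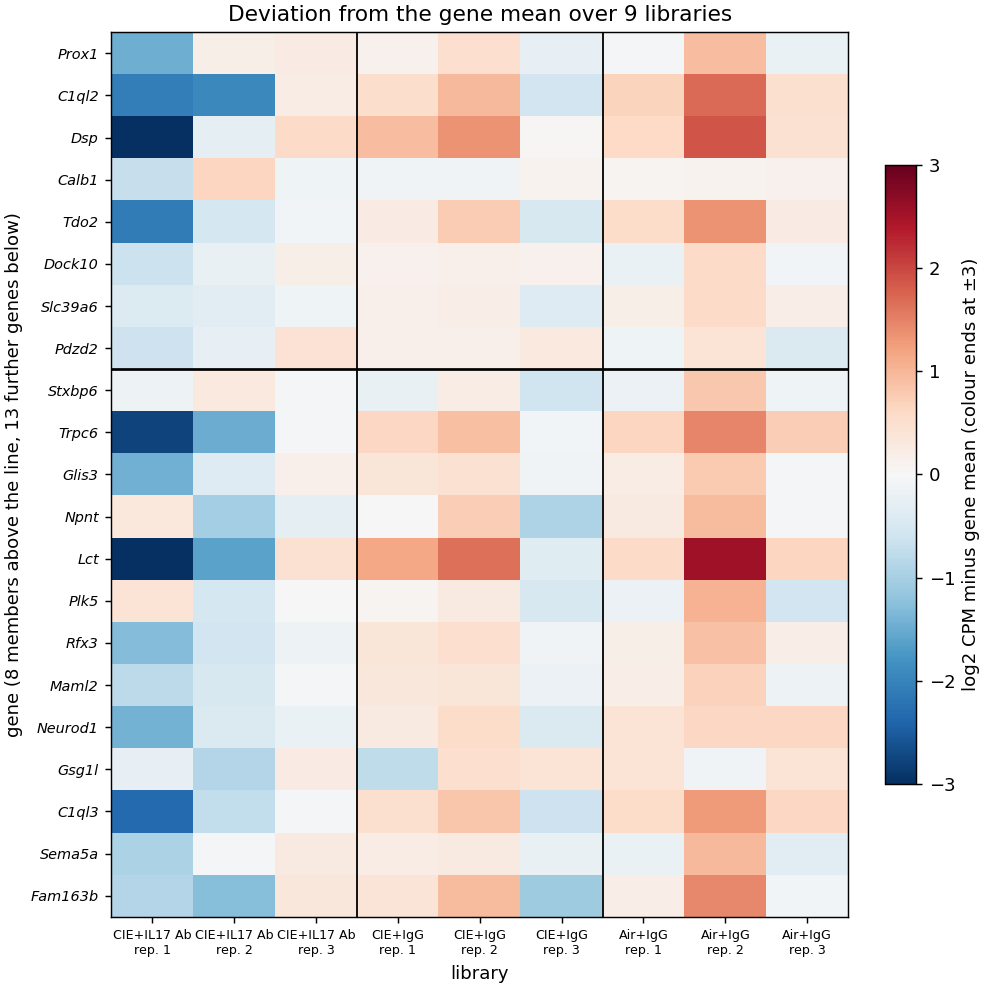
Deviation of log2 CPM from each gene's mean over the 9 libraries (colour, ends at ±3) for the 8 members (above the line) and 13 of the 14 further granule cell genes (below), with libraries in columns. CIE+IL17 Ab replicate 1 is the lowest library for all 8 members and 8 of the 13, and Air+IgG replicate 2 is the highest for 6 members and 11 of the 13.

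The map of deviations shows the further genes to differ among themselves as the members do. Over the 9 libraries the Pearson r between a further gene and the members' mean deviation ran from 0.20 for Plk5, 0.25 for Gsg1l, 0.31 for Npnt and 0.42 for Stxbp6 to 0.99 for both Lct and Glis3. Of the 10 genes outside the members with the highest r, 9 are named here, Plekha2 at 0.996, then Celf3, Glis3, Tiam1, Lct, Tnxb, Ubtf and Il1r1, down to Dapk1 at 0.988. Of these, Glis3 and Lct are in the list of further granule cell genes. All 9 were lowest in CIE+IL17 Ab replicate 1 and highest in Air+IgG replicate 2, which dominate a correlation over 9 libraries. Plekha2 averaged 28.6 CPM in CIE+IL17 Ab libraries, 51.1 CPM in CIE+IgG libraries and 59.2 CPM in Air+IgG libraries, and Tiam1, a Rac exchange factor, 164, 229 and 263 CPM in the same order of groups. These correlations are descriptions over libraries that share their groups, with no test.

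Markers of other cells and regions moved with the groups. The 11 thalamus and habenula genes summed to between 459 and 1335 CPM in CIE+IL17 Ab libraries, 76.4 and 385 CPM in CIE+IgG libraries, and 95.9 and 109 CPM in Air+IgG libraries. Of the 11, edgeR called 9 as higher in CIE+IL17 Ab over CIE+IgG and 10 as higher in CIE+IL17 Ab over Air+IgG, against 1.78% and 6.83% of tested genes called higher. Pou4f1, a habenula transcription factor, was at 0 counts in CIE+IgG replicates 1 and 2 and Air+IgG replicates 1 and 2, and Tcf7l2, a thalamic transcription factor, averaged 178 ± 52.9 CPM in CIE+IL17 Ab libraries and 6.18 ± 0.80 CPM in Air+IgG libraries. The 8 CA1 pyramidal genes summed to between 146 and 291 CPM in CIE+IL17 Ab libraries, 463 and 669 CPM in CIE+IgG libraries, and 638 and 730.3 CPM in Air+IgG libraries. Of these 8, 4 were called lower in CIE+IL17 Ab over CIE+IgG and 5 in CIE+IL17 Ab over Air+IgG, against 1.41% and 6.71% of tested genes called lower, and none of them was at 0 counts in any library.

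Some oligodendrocyte, microglia and interneuron genes were also called in CIE+IL17 Ab over Air+IgG. The 6 oligodendrocyte genes summed to between 5904 and 7206 CPM in CIE+IL17 Ab libraries, 4397 and 6998 CPM in CIE+IgG libraries, and 3851 and 4393 CPM in Air+IgG libraries. Of the 6, edgeR called 5 as higher in CIE+IL17 Ab over Air+IgG and 0 in CIE+IL17 Ab over CIE+IgG. Over all tested genes 6.83% and 1.78% were called higher in these comparisons. Mbp, which encodes myelin basic protein, averaged 2921 ± 224 CPM in CIE+IL17 Ab libraries and 1794 ± 194 CPM in Air+IgG libraries (SD, n = 3 each). Without both Lars2-rich libraries none of the 6 was called by edgeR, with a median log2 fold change of 0.61 against 0.73 with all libraries. The 6 microglia genes summed to between 174 and 193 CPM in CIE+IL17 Ab libraries, 230.0 and 242 CPM in CIE+IgG libraries, and 217 and 258 CPM in Air+IgG libraries. Of these, 2 were called lower in CIE+IL17 Ab over CIE+IgG and 3 in CIE+IL17 Ab over Air+IgG (P2ry12, Tmem119 and Csf1r), against 0 in both with pan-neuronal scaling. The shares of all tested genes called lower were 1.41% and 6.71% in these comparisons. Beside the same shares, 1 of the 8 interneuron genes was called lower in CIE+IL17 Ab over CIE+IgG and 2, Sst and Npy, in CIE+IL17 Ab over Air+IgG. In the latter, 4 of the 8 interneuron genes were below 0 and 4 above. Their sums overlapped between all groups, at 468 to 968 CPM in CIE+IL17 Ab libraries, 645 to 1032 CPM in CIE+IgG libraries and 590.1 to 714 CPM in Air+IgG libraries. In CIE+IL17 Ab over Air+IgG, edgeR also called 2 higher and 2 lower of 12 CA2 and CA3 genes, 1 higher of 6 neocortex layer genes, and 1 higher and 1 lower of 14 pan-neuronal genes. Beside these, 6.83% of tested genes were called higher and 6.71% lower. None of 6 astrocyte, 8 striatum or 8 choroid plexus genes was called there. Of these, 5, 1 and 1 had an unadjusted p under 0.05, against 32% of tested genes. DESeq2 called 1 each and limma-voom 0 each, against 20.2% and 14.2% of tested genes. Pan-neuronal scaling gave 3 astrocyte calls in edgeR, where it called 1454 genes higher and 442 lower over all tested genes. The list counts depended on single libraries, as did the calls over all genes. Without Air+IgG replicate 3 edgeR called 0 of 14744 tested genes in CIE+IL17 Ab over Air+IgG, and so none of any list. Without CIE+IgG replicate 1 it likewise called 0 of 14747 in CIE+IL17 Ab over CIE+IgG. These losses are therefore not particular to the lists. Leaving out Air+IgG replicate 2 or CIE+IL17 Ab replicate 2 also left none of the oligodendrocyte or microglia calls in CIE+IL17 Ab over Air+IgG. Leaving out Air+IgG replicate 1 left 2 of each and none of the interneuron calls. Over all tested genes these 3 omissions gave 192, 151 and 271 higher and 144, 67 and 207 lower calls, in the order named. All 9 libraries gave 1004 higher and 986 lower calls. The part of the marker genes' levels in the lower values of C1ql2, Tdo2 and Slc39a6 in CIE+IL17 Ab libraries was not tested.

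The members themselves summed to 373, 694 and 826 CPM in CIE+IL17 Ab libraries, 817, 923 and 720 CPM in CIE+IgG libraries, and 728, 1232 and 699 CPM in Air+IgG libraries. These sums overlapped between all groups, whereas the thalamus and habenula and the CA1 sums of the CIE+IL17 Ab libraries did not overlap with those of the other groups. Calb1, which was highest in CIE+IL17 Ab replicate 2, is also known from thalamic neurons, and that library had the highest thalamus and habenula sum. The 8 striatum genes were highest in CIE+IgG replicate 3 at 632 CPM and CIE+IL17 Ab replicate 3 at 405 CPM. The other 7 libraries had 59.4 to 130.2 CPM. Within its group, CIE+IgG replicate 3 had the lowest Prox1, C1ql2, Dsp, Tdo2 and Slc39a6, but the highest Calb1 and Pdzd2. Dock10 was nearly equal in the 3 CIE+IgG libraries. CIE+IL17 Ab replicate 3 had the highest level of its group for every member except Calb1. Any relation between the members and the striatum genes was not tested. The 3 hilar mossy cell genes, from the neurons next to the granule cell layer, summed to between 149.9 and 249 CPM in CIE+IL17 Ab libraries, 23.6 and 94.5 CPM in CIE+IgG libraries, and 20.7 and 46.9 CPM in Air+IgG libraries. Of these, Calb2, which thalamic neurons also express, was called higher in CIE+IL17 Ab over Air+IgG (2.85 ± 0.68, adjusted p = 0.0315 in edgeR). Over all tested genes 6.83% were called higher in that comparison. Calb2 made up most of the CIE+IL17 Ab sums, at 140, 222 and 117 CPM. Drd2 (2.88 ± 1.10, adjusted p = 0.113 in edgeR) and Calcrl (0.33 ± 0.17, adjusted p = 0.216 in edgeR) were not called there. Drd2 was highest in CIE+IgG replicate 3 at 26.6 CPM, the library with the highest striatum sum. The 7 tested genes of immature granule neurons and progenitors gave no call in any comparison in edgeR, with 0, 0 and 1 at an unadjusted p under 0.05. Over all tested genes 0%, 3.18% and 13.5% were called in the same order of comparisons. The shares at an unadjusted p under 0.05 were 2.76%, 22.3% and 32%. The 7 genes summed to between 74.6 and 105 CPM in CIE+IL17 Ab libraries, 77.1 and 109.8 CPM in CIE+IgG libraries, and 69.5 and 83.2 CPM in Air+IgG libraries.

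**Figure D4:**
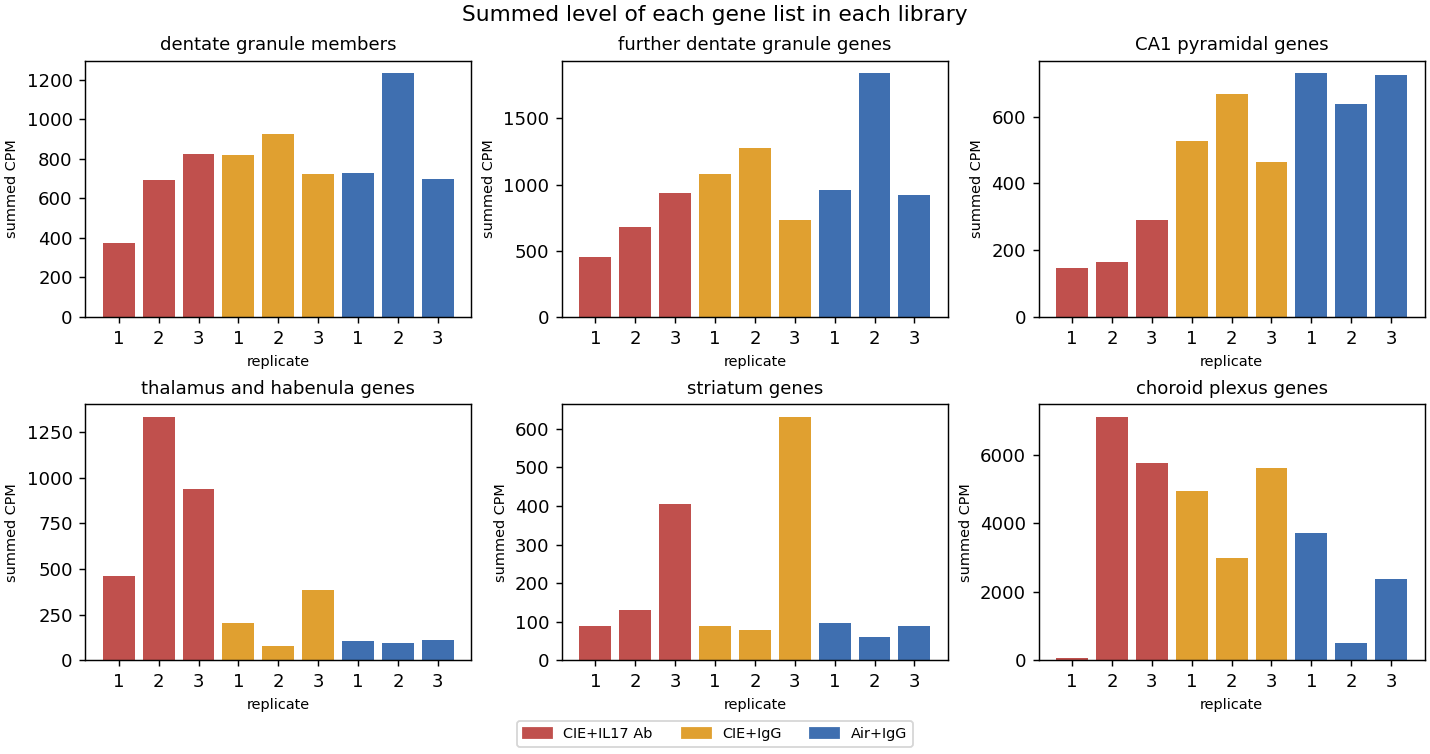
Summed TMM-scaled CPM (vertical axes, from 0) of 6 gene lists in each of the 9 libraries, coloured by group, with the replicate number below each bar. The 8 granule cell members run from 373 to 1232 CPM with overlap between groups, while the thalamus and habenula genes are at 459 CPM or more in CIE+IL17 Ab libraries and at most 385 CPM elsewhere.

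The sample labels carry numbers that fall into a set of 37 to 39, with 1 library of each group, and a set of 54 to 60, with 2 of each group, and what they stand for is not given. In the first set there is 1 library a group, CIE+IL17 Ab replicate 2, CIE+IgG replicate 3 and Air+IgG replicate 3, so no test is possible within it. Prox1 was at 159, 118 and 122 CPM in these, C1ql2 at 6.42, 17.0 and 35.4 CPM, Dsp at 46.8, 57.9 and 78.4 CPM, and Slc39a6 at 44.8, 43.1 and 64.6 CPM. Within the set of 54 to 60 the member medians of the log2 fold change were -0.21 in CIE+IgG over Air+IgG, -0.56 in CIE+IL17 Ab over CIE+IgG and -0.76 in CIE+IL17 Ab over Air+IgG. No member was called by edgeR in any of them, and over all 14604 tested genes it called 0, 1 and 2 in the same order. Slc39a6 was at -0.65 there in CIE+IL17 Ab over Air+IgG (adjusted p = 0.159 in edgeR), C1ql2 at -1.76 and Tdo2 at -1.79. With the set as a block over all 9 libraries, Slc39a6 (-0.60, adjusted p = 0.0305 in edgeR) and C1ql2 were called in that comparison. Over all tested genes that fit called 1077 higher and 1122 lower.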

How the data were processed

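The deposited table holds an expected count (an estimated count, not scaled for depth) for each gene and library, which the authors made before deposit with STAR 2.5.1a and RSEM 1.3.0 on GRCm38, per the submitters' processing notes. Which annotation they used is not given in the sources used here. Libraries were stranded and polyA-selected, per the labels' protocols. Of the values, 27.1% have decimals, since RSEM shares reads among genes with common sequence. No gene has a third-largest count under 6, so genes of low expression may be missing. Symbols, loci and exon lengths came from GENCODE M21 and matched 14628 of 14779 identifiers.

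Counts were rounded to whole numbers and filtered with filterByExpr (minimum count 10), which left 14696 genes, all 8 members included. The test was edgeR 4.0.16 in R 4.3.3 (TMM, glmQLFit with robust=TRUE, quasi-likelihood F-test) on all 9 libraries in a fit of group means, which left 6 residual degrees of freedom. Benjamini-Hochberg adjustment ran over all tested genes, those under 0.05 were called, and a standard error is the log2 fold change over the square root of F. The common biological coefficient of variation was 0.189. Log2 CPM used a prior count of 2. The fits were tested on simulated data. Labels do not say whether libraries of a group are separate preparations beyond the 3 mice stated. The p-values therefore set a difference of group means against the spread between these libraries, whatever that spread stands for. Library totals of 7372658 to 11894628 counts set the precision, and Poisson intervals cover counting error only.

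Members and lists were chosen with earlier results of these data known, so neither gives independent support to the other. Named genes are the 8 members, those of 14 further granule cell genes that passed or were among the 2 largest absolute log2 fold changes of a comparison, the 10 other genes most correlated with the members' mean, and defining genes of lists that moved with a group. A further granule cell gene, counted in its list, and a correlated gene are not reported here. Alternatives were DESeq2 1.42.0 and its size factors, limma-voom (limma 3.58.1), scaling by 14 pan-neuronal genes, other filters, only the groups compared, replicate or label number blocks, subsets of libraries and another threshold.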

Additional observations from a re-analysis of the deposited data

How the results depend on the processing

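Of the log2 fold changes recomputed under the alternatives, 547 kept their direction and side of the threshold, 25 lost a call, 8 gained one and 30 changed sign, and no called value changed sign. Most of the 547 were uncalled values that stayed uncalled. The 25 losses all belong to the called values, Slc39a6 and Neurod1 in CIE+IL17 Ab over Air+IgG. These passed in 8 of 20 and 7 of 20 alternatives. The signs that changed belong to uncalled values. In CIE+IgG over Air+IgG, Dock10 was at 0.0518 with pan-neuronal scaling, 0.0299 in limma-voom and 0.02499 with the replicate block. Without both Lars2-rich libraries, Prox1 was at 0.28, Dsp at 0.32, Dock10 at 0.27 and Lct at 0.41. Leaving out each library in turn gave -0.37 to 0.27 for Prox1, -0.59 to 0.32 for Dsp, -0.14 to 0.26 for Dock10 and -0.98 to 0.40 for Lct. In CIE+IL17 Ab over CIE+IgG, Calb1 was at -0.0181 in limma-voom and -0.28 with label numbers 54 to 60, Prox1 at 0.0664 without both Lars2-rich libraries, and single omissions gave -0.57 to 0.0661 for Prox1 and -0.35 to 0.35 for Calb1. In CIE+IL17 Ab over Air+IgG, pan-neuronal scaling gave 0.15 for Calb1 and 0.10 for Pdzd2, leaving out both Lars2-rich libraries gave 0.34 for Prox1, 0.22 for Calb1, 0.12 for Dock10 and 0.41 for Pdzd2, and single omissions gave -0.49 to 0.21 for Calb1 and -0.41 to 0.20 for Pdzd2. The cause of these differences was not tested.

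Counts of called genes depended on the test and on single libraries. In CIE+IgG over Air+IgG, edgeR called 0 genes and DESeq2 6. In CIE+IL17 Ab over CIE+IgG, 468 genes were called, against 263 with pan-neuronal scaling, 1481 in DESeq2, 1 with only the groups compared, 776 with the label number block, 1 with label numbers 54 to 60, 1293 at a threshold of 0.10, and 0 to 1313 over single omissions, lowest without CIE+IgG replicate 1 and highest without CIE+IL17 Ab replicate 3. No member was called in this comparison except C1ql2 without CIE+IL17 Ab replicate 3, so single omissions gave 0 to 1. In CIE+IL17 Ab over Air+IgG, 1990 genes were called, against 1192 with only the groups compared, 2 with label numbers 54 to 60, 1067 without both Lars2-rich libraries, 3453 at a threshold of 0.10, and 0 to 2305 over single omissions, lowest without Air+IgG replicate 3. There 1 member was called, against 0 with pan-neuronal scaling, in limma-voom, with label numbers 54 to 60 and without both Lars2-rich libraries, 2 in DESeq2 and with the label number block, 3 at a threshold of 0.10, and 0 to 2 over single omissions. Pan-neuronal scaling moved the median log2 fold change of all genes to 0.11 in CIE+IL17 Ab over CIE+IgG and 0.17 in CIE+IL17 Ab over Air+IgG, with 193 higher and 70 lower calls against 261 and 207 in the first, and 1454 higher and 442 lower against 1004 and 986 in the second.

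The titles number the replicates 1 to 3 in every group, but same-numbered libraries shared no consistent deviation (correlations from -0.27 to 0.249), so the numbers are not taken to pair them. With the replicate block, 14 genes were called in CIE+IL17 Ab over CIE+IgG and 571 in CIE+IL17 Ab over Air+IgG, with 0 members in both, and Slc39a6 was at -0.60 in the second. With 3 libraries a group and 6 counts for Tdo2 or 7 for Dsp in a library, a p that misses the threshold does not show equal levels.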
